A study of Homo sapiens with 12 samples.

Results

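The genes described here encode the proteasome, its activators and inhibitor, and the chaperones that assemble its core. They were taken as the protein-coding genes whose GENCODE v29 symbol is PSM, a letter from A to G and a number, leaving out the immune subunits PSMB8 and PSMB9. Of 46 such genes in that annotation, 44 are among the 16676 genes of the expression table, and PSMA8 and PSMB11 were not analysed here. All 44 passed the filter on low values, so no member was lost to it. They fall into 15 genes of the core particle (7 of the outer alpha rings, PSMA, and 8 of the inner beta rings, PSMB), 20 of the regulatory particle (6 ATPases, PSMC, and 14 non-ATPases, PSMD) and 9 others (4 activators, PSME; the inhibitor PSMF1; 4 core assembly chaperones, PSMG).

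The proteasome degrades proteins that carry ubiquitin chains. Its core is a barrel of stacked rings with the proteolytic sites on the inside, and the regulatory particle on its ends binds ubiquitin chains, removes them, and unfolds and feeds in the substrate. Cells exposed to interferon exchange the proteolytic subunits for immune forms and make more of the PSME1 and PSME2 activator, which favours peptides for antigen presentation, and cells with too little proteasome activity raise subunit transcription through the factor NFE2L1.

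The study asked how SPARCLE, a long non-coding RNA that its title describes as p53-induced, bears on the response to genotoxic stress. HCT116 cells, a human colorectal carcinoma line, were SPARCLE KO, SPARCLE OE (over-expressing) or WT. Each kind of cell was given 1 µM doxorubicin, an anthracycline that poisons topoisomerase and breaks DNA, or regular medium (control) for 48 h. RNA of 2 biological replicates (a and b) in each of the 6 groups was sequenced with a strand-specific total RNA kit. The way the KO was made, the vector behind the OE cells and whether either line is 1 clone are not given in the sources used here, and p-values measure only the spread between these libraries.

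The unit throughout is TPM, a transcript count scaled to a fixed total per library, which corrects for gene length and depth. Reads on listed genes, recovered from the TPM values, numbered 24878542 to 30674428 in the 6 doxorubicin libraries and 12593468 to 18562211 in the 6 control libraries, so depth and medium cannot be told apart by library. Small RNA genes held 64.5 to 75.3% of all TPM, which limits what the remaining genes share. SPARCLE had 384 to 622 reads in OE libraries and 0 to 4 in KO and WT libraries. WT cells were thus at the same floor as KO cells, so this gene gives no check of the KO label. Of the 10 colon epithelial markers 8 are listed, and their summed level was 2678 to 3316 TPM in doxorubicin libraries and 994.8 to 2185 TPM in control libraries, with VIL1 under 1 TPM throughout and 4 of 7 tested markers called higher with doxorubicin. Leukocyte, fibroblast and endothelial lists were each represented by 1 gene, of which CD68 reached 43.9 TPM and fell with doxorubicin while VWF stayed under 0.4 TPM. In such bulk RNA, a change in the share of cells and a change in RNA per cell cannot be told apart.

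Levels across the 44 genes spanned a wide range on the TPM scale, over the 12 libraries. The beta ring gene PSMB3 had the highest mean in the core at 155 TPM, followed by PSMB1 at 127 TPM, PSMB4 at 124 TPM and PSMB5 at 117 TPM. PSMB10, an immune-type proteolytic subunit, was the lowest core gene at 15.8 TPM. In the regulatory particle the ATPase PSMC4 led at 83.0 TPM and the ATPase PSMC1 was lowest at 5.43 TPM, although both proteins sit in the same ring. The lowest of all was the chaperone PSMG4 at 1.38 to 2.92 TPM, with 149 to 569 reads per library. Reads behind the other genes ranged from 74 for PSMB10 to 8177 for PSMD2 in single libraries. By level, 9 of the 15 highest genes (53.9 TPM and over) were higher with doxorubicin by the test described next. So were 11 of the 14 middle genes and 10 of the 15 lowest (22.3 TPM and under). Of all genes tested, 32.2% were called higher.

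Most of the genes were higher with doxorubicin and none passed the test as lower. Averaged over KO, OE and WT cells, 30 of 44 were higher and 0 lower in limma (Benjamini-Hochberg adjusted p under 0.05 over 15256 genes tested), where 32.2% of all genes tested were called higher and 25.9% lower. Before adjustment, p was under 0.05 for 32 genes on the higher side and 0 on the lower side. The median log2 difference of TPM + 1 was 0.52 over the 44 genes and 0.09 over all genes tested. In 18 of the 44 every doxorubicin library lay above every control library, against 15.7% of all genes. By role, the test called 6 of 7 alpha ring genes, 6 of 8 beta ring genes, 3 of 6 ATPases, 8 of 14 non-ATPases, 3 of 4 activators, the inhibitor and 3 of 4 core chaperones. The 44 genes together took 0.735 to 0.809% of the TPM outside small RNA genes in doxorubicin libraries and 0.485 to 0.554% in control libraries, with no overlap between media. Relative to the median of all genes, the members' own median was 0.42 higher. The epithelial marker sum and the depth given above move with the same contrast, and their part in it was not tested.

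**Figure D1:**
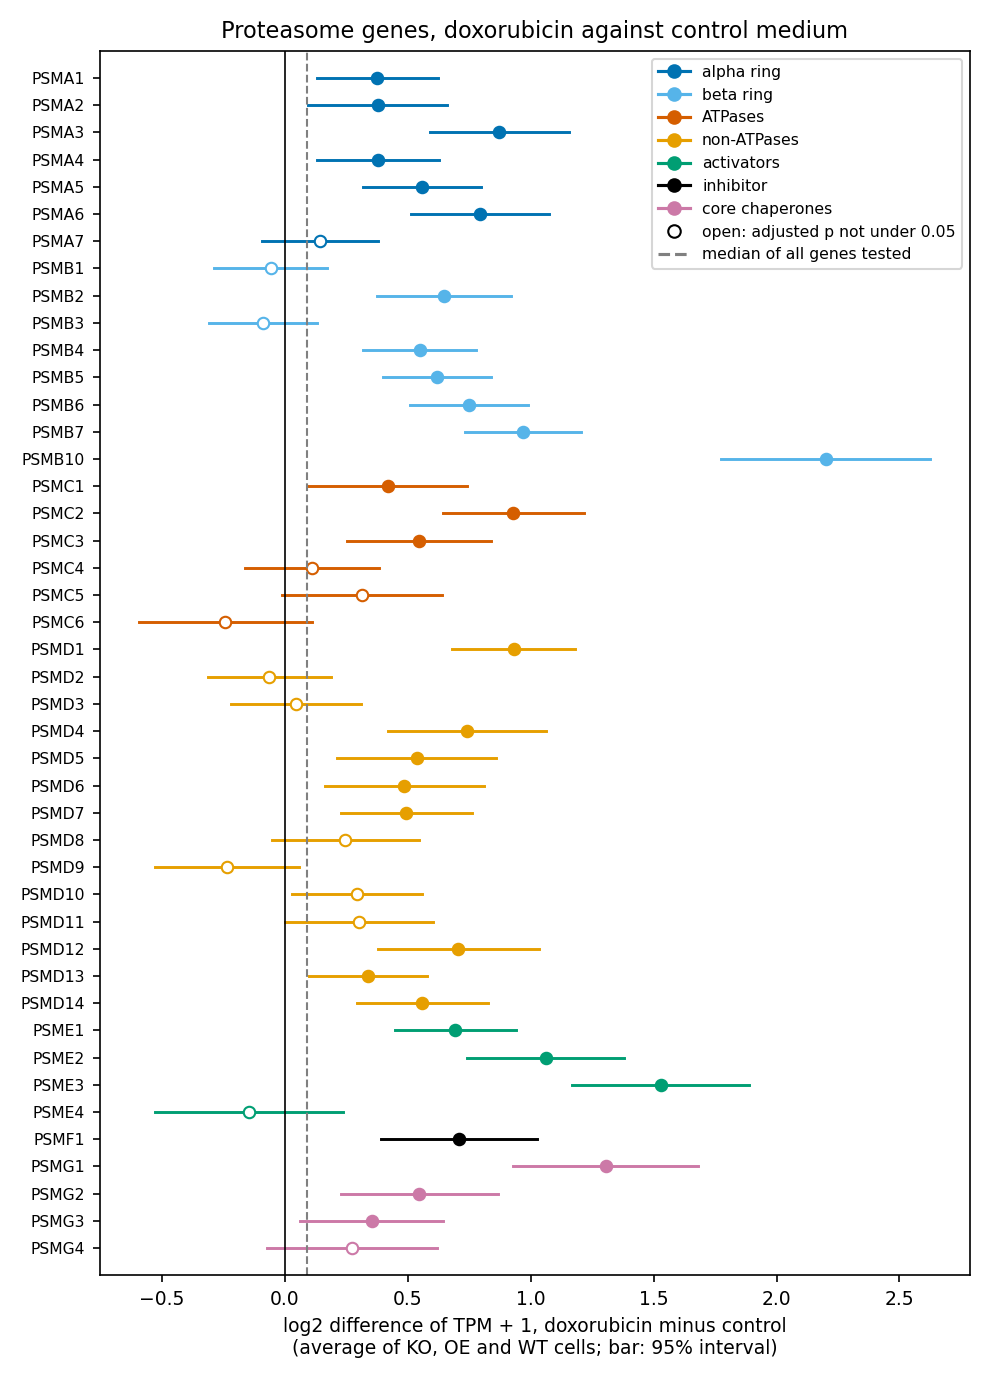
Log2 difference of TPM + 1 between doxorubicin and control medium (x axis), averaged over KO, OE and WT cells, for each of the 44 genes (y axis, coloured by role), with bars for 95% intervals and filled points for limma adjusted p under 0.05. PSMB10 at 2.20, PSME3 at 1.53 and PSMG1 at 1.31 lie farthest to the right, and the points below 0 are all open.

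In the alpha rings, which gate the entry to the barrel, PSMA3 and PSMA6 moved most. PSMA3 (chr14:58244831-58272012, plus strand, GRCh38) had 53.03 and 39.6 TPM in treated against 27.997 and 27.6 in control KO libraries, 44.998 and 41.9 in treated against 19.4 and 22.4 in control OE libraries, and 51.2 and 37.4 in treated against 25.4 and 21.1 in control WT libraries. Every treated library exceeded every control library, and the difference was 0.87 ± 0.13 (log2, SE, 12 libraries; limma adjusted p = 0.000121). PSMA6 had 45.5 and 31.8 TPM in treated against 22.5 and 25.1 in control KO libraries, 41.4 and 33.3 in treated against 20.8 and 18.3 in control OE libraries, and 37.8 and 33.4 in treated against 20.8 and 18.5 in control WT libraries. It too was without overlap, at 0.79 ± 0.13 (limma adjusted p = 0.000242). A read-through model on the same strand, AL121594.1, shares sequence with PSMA6 and moved by 0.82. PSMA5 had 39.9 and 40.1 TPM in treated against 31.3 and 28.3 in control KO libraries, 37.3 and 38.3 in treated against 24.8 and 23.1 in control OE libraries, and 40.6 and 34.8 in treated against 25.7 and 22.4 in control WT libraries. Its 6 treated libraries were above its 6 control libraries by a smaller step, 0.56 ± 0.11 (limma adjusted p = 0.000936). Same-strand models also overlap PSMA1 and PSMA2. AC018523.2, over PSMA1, was at 107.6 TPM with doxorubicin and 100.1 TPM in control medium and had a difference of 0.09 that did not pass (limma adjusted p = 0.478), and AC010132.3, over PSMA2, rose by 0.53. PSMA1, PSMA2 and PSMA4 each rose by 0.38, and PSMA7, the highest of the alpha genes at 110.3 TPM, had a difference of 0.14 that did not pass (95% interval -0.09 to 0.38).

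The constitutive proteolytic subunits are PSMB5 (chymotrypsin-like), PSMB6 (caspase-like) and PSMB7 (trypsin-like), and all 3 rose. PSMB7 (chr9:124353466-124415444, minus strand) had 144 and 123 TPM in treated against 74.3 and 69.6 in control KO libraries, 135 and 117 in treated against 71.9 and 61.6 in control OE libraries, and 169 and 145 in treated against 74.3 and 68.7 in control WT libraries. The mean over 6 libraries was 139 ± 18.4 TPM with doxorubicin and 70.1 ± 4.75 TPM in control medium (SD, n = 6 each), a log2 difference of 0.97 ± 0.11 (limma adjusted p = 1.55e-05). PSMB6 had 109 and 90.7 TPM in treated against 63.7 and 59.1 in control KO libraries, 102 and 84.2 in treated against 63.2 and 55.9 in control OE libraries, and 124 and 108 in treated against 61.1 and 59.4 in control WT libraries. PSMB5 had 141 and 129 TPM in treated against 89.5 and 97.7 in control KO libraries, 129.5 and 122 in treated against 92.5 and 80.2 in control OE libraries, and 170.3 and 165 in treated against 99.9 and 92.2 in control WT libraries. Both were without overlap between media, at 0.75 ± 0.11 for PSMB6 (limma adjusted p = 0.000117) and 0.62 ± 0.10 for PSMB5 (limma adjusted p = 0.000253). Treated WT a was the highest of the 12 libraries in all 3 genes, and treated WT b came next in PSMB5 and PSMB7.

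PSMB10 (chr16:67934502-67937087, minus strand), the immune form that takes the place of PSMB7, changed most of the 44. Its values were 36.6 and 17.4 TPM in treated against 5.21 and 5.06 in control KO libraries, 34.7 and 20.04 in treated against 4.55 and 6.05 in control OE libraries, and 24.8 and 26.4 in treated against 3.48 and 4.94 in control WT libraries. Treated libraries started at 17.4 TPM and control libraries ended at 6.05 TPM, while replicates a of treated KO and OE cells stood well above replicates b. The log2 difference was 2.20 ± 0.20 (95% interval 1.77 to 2.62, limma adjusted p = 2.87e-06), which is 5.46 times by the mean TPM. Relative to PSMB7 in the same library, PSMB10 was 0.142 to 0.257 with doxorubicin and 0.0469 to 0.0982 in control medium. It therefore stayed a minor form against its constitutive counterpart in all 12 libraries. The same-strand model AC040162.1 overlaps PSMB10 and rose by 1.67, so reads of that stretch cannot be assigned to either with certainty. PSMB9, the immune form that replaces PSMB6 and no member here, was 0.0167 to 0.0436 of PSMB6 with doxorubicin and 0.0232 to 0.0472 in control medium, and these ranges overlapped.

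The remaining beta genes are structural. PSMB2 rose by 0.65 and PSMB4 by 0.55. PSMB3, the gene of highest level, did not pass the test. It had 144 and 146 TPM in treated against 157 and 175 in control KO libraries, 134 and 142 in treated against 157 and 154 in control OE libraries, and 173 and 163 in treated against 169 and 144 in control WT libraries. Treated KO and OE libraries were all below their own controls, WT libraries overlapped, and the average difference was -0.09 (95% interval -0.31 to 0.13). PSMB1 likewise had 114 to 138 TPM with doxorubicin and 109 to 143 TPM in control medium (-0.06, 95% interval -0.29 to 0.17).

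**Figure D2:**
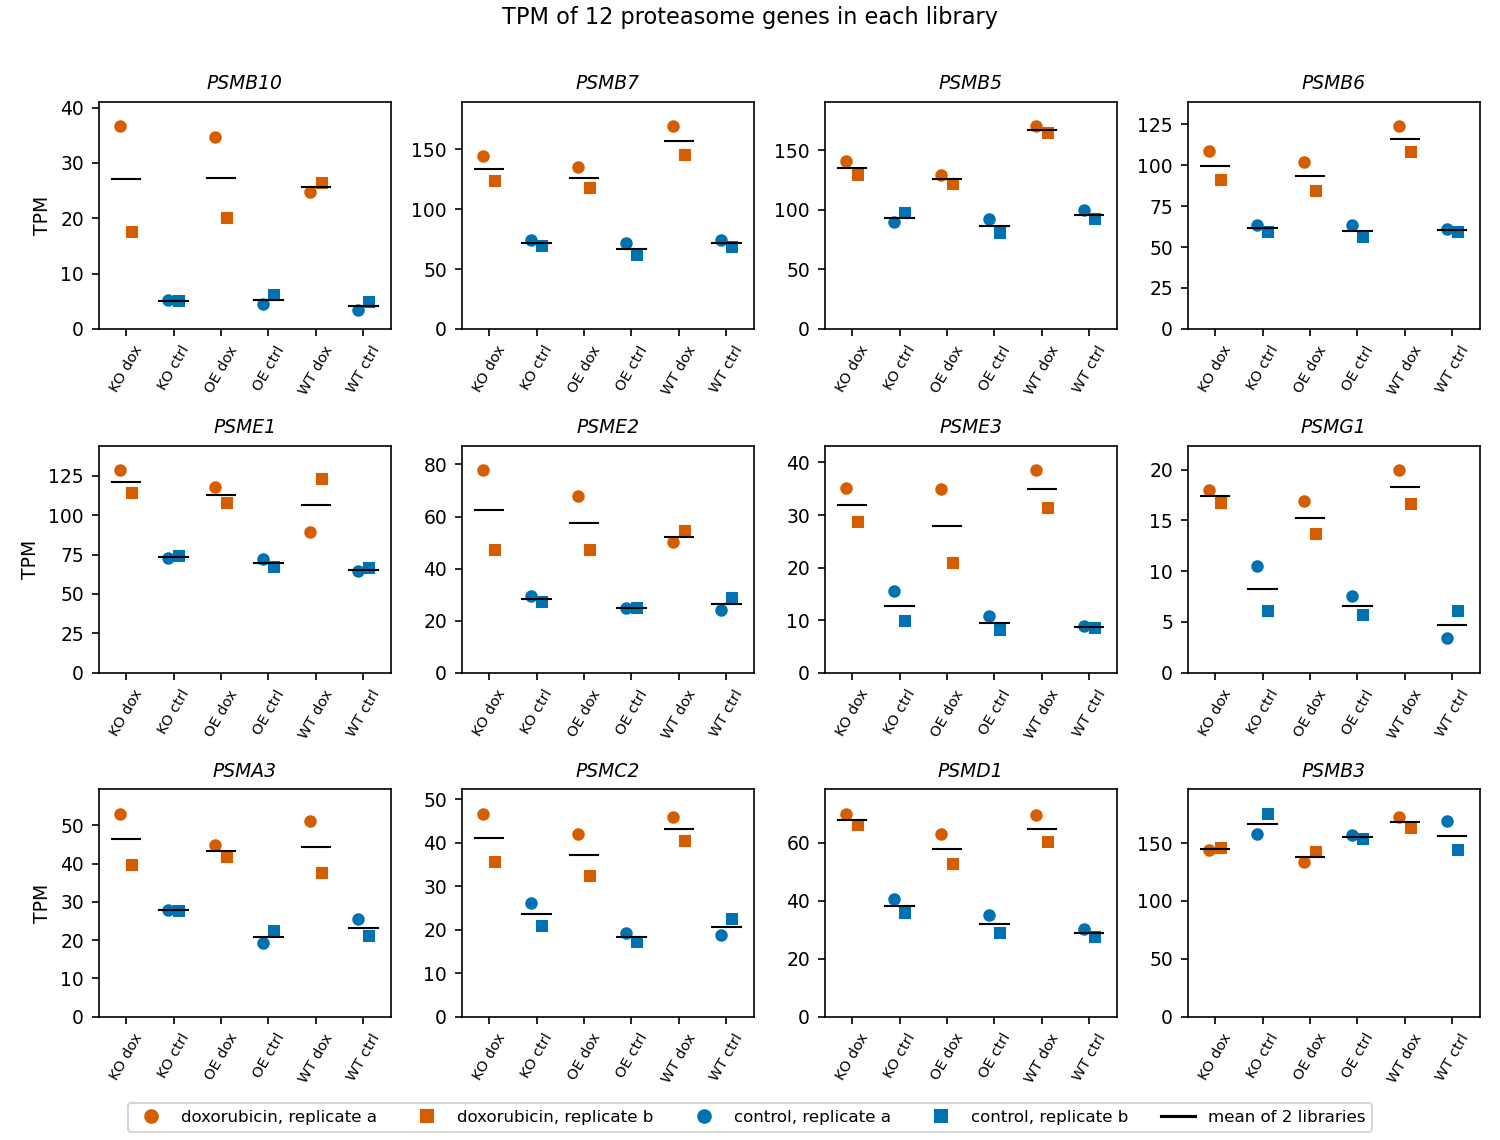
TPM (y axis, from 0, a scale for each panel) of 12 proteasome genes in each library, for KO, OE and WT cells with doxorubicin or control medium (x axis), with circles for replicate a, squares for replicate b and a line at the mean of the 2 libraries. PSMB10 is at 17.4 TPM or more in treated libraries and at 6.05 TPM or less in control libraries, whereas PSMB3 shows no such step.

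The 6 ATPases form the ring that unfolds substrates, and they did not move alike. PSMC2 had 46.7 and 35.6 TPM in treated against 26.2 and 20.9 in control KO libraries, 42.01 and 32.5 in treated against 19.3 and 17.2 in control OE libraries, and 45.9 and 40.3 in treated against 18.7 and 22.5 in control WT libraries. All treated libraries exceeded all controls, by 0.93 ± 0.13 (limma adjusted p = 8.27e-05). PSMC3 had 74.7 and 63.8 TPM in treated against 55.7 and 46.7 in control KO libraries, 66.02 and 46.3 in treated against 53.4 and 39.7 in control OE libraries, and 86.8 and 74.2 in treated against 37.7 and 44.97 in control WT libraries. The OE libraries overlapped between media in this gene, and the average difference was 0.55 ± 0.14 (limma adjusted p = 0.00398). PSMC1 had 8.16 and 5.89 TPM in treated against 4.63 and 5.31 in control KO libraries, 6.803 and 5.21 in treated against 3.71 and 4.13 in control OE libraries, and 6.81 and 5.39 in treated against 4.89 and 4.28 in control WT libraries. The step was 0.42 ± 0.15 (limma adjusted p = 0.0283) and the media overlapped only between kinds of cells. PSMC4, the most abundant ATPase transcript, had 94.4 and 74.3 TPM in treated against 75.8 and 102 in control KO libraries, 85.4 and 65.8 in treated against 74.9 and 78.01 in control OE libraries, and 101 and 96.9 in treated against 79.8 and 67.1 in control WT libraries. Its media overlapped (0.11, 95% interval -0.16 to 0.38), PSMC5 had 0.31 (limma adjusted p = 0.0907), and PSMC6 had -0.24 (limma adjusted p = 0.218) with a negative value in each kind of cell.

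Among the non-ATPases, PSMD1, the large scaffold of the base, changed most. It had 69.9 and 65.9 TPM in treated against 40.6 and 35.7 in control KO libraries, 62.998 and 52.5 in treated against 34.9 and 28.8 in control OE libraries, and 69.5 and 60.1 in treated against 30.3 and 27.5 in control WT libraries. The lowest treated library was at 52.5 TPM and the highest control at 40.6 TPM, and the difference was 0.93 ± 0.12 (limma adjusted p = 3e-05). PSMD4, a ubiquitin receptor, had 78.3 and 61.5 TPM in treated against 51.9 and 36.5 in control KO libraries, 69.7 and 48.2 in treated against 44.7 and 32.7 in control OE libraries, and 80.03 and 68.6 in treated against 34.5 and 40.04 in control WT libraries. One treated library, OE b, fell under one control library, KO a, and the difference was 0.74 ± 0.15 (limma adjusted p = 0.000963). PSMD12, a lid subunit, had 61.04 and 43.6 TPM in treated against 33.9 and 34.2 in control KO libraries, 53.9 and 32.2 in treated against 27.3 and 26.7 in control OE libraries, and 64.2 and 47.2 in treated against 29.8 and 27.4 in control WT libraries. Here too treated OE b was among the control values, at an average of 0.71 ± 0.15 (limma adjusted p = 0.00153). PSMD14, the deubiquitinase of the lid, was without overlap between media at 0.56 (limma adjusted p = 0.00186), and its lid partner PSMD7 rose by 0.49. PSMD6 and PSMD13 rose by 0.49 and 0.34.

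PSMD5, PSMD9 and PSMD10 are chaperones that leave the base before it is finished. PSMD5 rose by 0.54 (limma adjusted p = 0.00813). PSMD9 had 5.62, 6.54 and 7.24 TPM as lowest, median and highest with doxorubicin and 6.76, 7.93 and 8.33 TPM in control medium. Its difference was -0.24 and did not pass with TPM as deposited (limma adjusted p = 0.152), but it was called lower when libraries were scaled by median ratios (-0.33, limma adjusted p = 0.0159) and with voom on recovered reads (-0.36, limma adjusted p = 0.0109). PSMD9 shares its strand with a read-through model at 18.4 TPM, and PSMD10 had 0.29 (limma adjusted p = 0.0557). The scaffold partner of PSMD1, PSMD2, had 54.4 to 78.9 TPM with doxorubicin and 60.1 to 79.3 TPM in control medium (-0.06, 95% interval -0.31 to 0.19), and a difference between the PSMD1 and PSMD2 responses was not tested. PSMD3, PSMD8 and PSMD11 had differences of 0.05, 0.25 and 0.30 that did not pass.

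**Figure D3:**
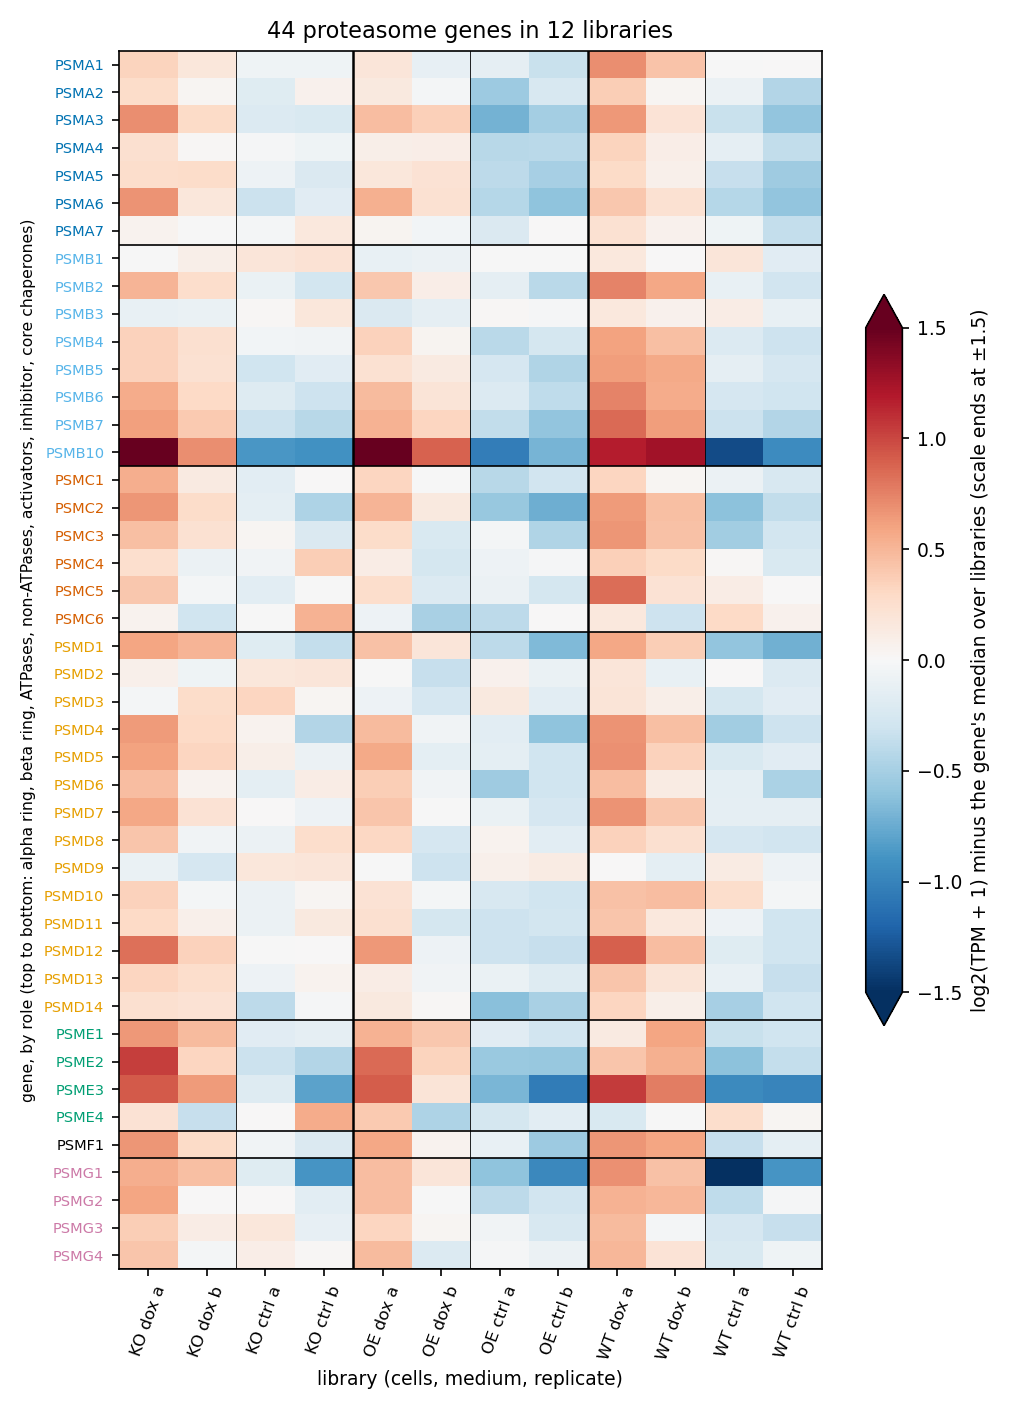
Log2(TPM + 1) of each of the 44 genes (rows, by role) in each of the 12 libraries (columns), as the difference from the gene's own median over libraries, with red above and blue below and the scale ending at 1.5 either way. Treated columns are mostly red and control columns mostly blue, and replicate a of a treated pair is mostly redder than replicate b. Some rows do not follow, among them PSMB1, PSMB3, PSMC4, PSMC6, PSMD2, PSMD3, PSMD9 and PSME4.

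Activators bind the ends of the core in place of the regulatory particle. PSME3, whose product is mainly nuclear and forms a ring of its own, had 35.1 and 28.7 TPM in treated against 15.6 and 9.89 in control KO libraries, 34.9 and 20.9 in treated against 10.9 and 8.21 in control OE libraries, and 38.6 and 31.3 in treated against 8.82 and 8.58 in control WT libraries. Media did not overlap, and the difference was 1.53 ± 0.17 (limma adjusted p = 1.15e-05). PSME2 (chr14:24143362-24147570, minus strand) had 77.9 and 47.05 TPM in treated against 29.6 and 27.3 in control KO libraries, 67.98 and 47.2 in treated against 24.97 and 24.8 in control OE libraries, and 50.1 and 54.4 in treated against 24.1 and 28.8 in control WT libraries. PSME1 (chr14:24136158-24138967, plus strand), its partner in the same ring, had 129 and 114 TPM in treated against 72.5 and 74.05 in control KO libraries, 118 and 108 in treated against 72.4 and 66.8 in control OE libraries, and 89.6 and 123 in treated against 64.3 and 66.2 in control WT libraries. Both lay wholly above their controls, PSME2 by 1.06 ± 0.15 (limma adjusted p = 6.86e-05) and PSME1 by 0.69 ± 0.11 (limma adjusted p = 0.000233). PSME4, the activator linked to histone breakdown in sperm and DNA repair, had 12.1 to 22.6 TPM with doxorubicin and 14.03 to 25.5 TPM in control medium. It did not pass (-0.15, limma adjusted p = 0.497).

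PSMF1, the inhibitor that binds the core, had 23.7 and 18.1 TPM in treated against 14.1 and 12.5 in control KO libraries, 22.4 and 15.2 in treated against 13.5 and 9.71 in control OE libraries, and 23.8 and 22.5 in treated against 11.3 and 13.1 in control WT libraries. It rose without overlap by 0.71 ± 0.15 (limma adjusted p = 0.00124). Among the chaperones that build the alpha ring, PSMG1 had 18.001 and 16.7 TPM in treated against 10.5 and 6.05 in control KO libraries, 16.9 and 13.7 in treated against 7.55 and 5.67 in control OE libraries, and 19.95 and 16.6 in treated against 3.398 and 6.03 in control WT libraries. Treated libraries started at 13.7 TPM, control KO a was the highest control at 10.5 TPM, and the difference was 1.31 ± 0.17 (limma adjusted p = 5.25e-05). PSMG2, its dimer partner, had 25.4 and 16.6 TPM in treated against 16.6 and 14.6 in control KO libraries, 22.99 and 16.3 in treated against 12.3 and 13.3 in control OE libraries, and 23.97 and 23.6 in treated against 12.4 and 16.3 in control WT libraries. PSMG3 had 34.8 and 28.8 TPM in treated against 30.2 and 24.4 in control KO libraries, 33.6 and 27.2 in treated against 25.7 and 22.4 in control OE libraries, and 37.5 and 26.2 in treated against 22.3 and 20.8 in control WT libraries. Their media overlapped, PSMG2 rose by 0.55 ± 0.15 (limma adjusted p = 0.00668) and PSMG3 by 0.35 ± 0.13 (limma adjusted p = 0.0382). PSMG4, partner of PSMG3, had 0.27 (limma adjusted p = 0.158).

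The 44 genes lie on 17 chromosomes, with 7 each on chromosomes 14 and 17. On chromosome 14, 6 of 7 were called higher (PSMB5, PSME1, PSME2, PSMA6, PSMA3 and PSMC1, but not PSMC6). On chromosome 17, 3 of 7 were called (PSMB6, PSME3 and PSMD12). These counts are read against 30 of 44 members and 32.2% of all genes tested called higher. A difference between chromosomes was not tested. PSME1 and PSME2 are neighbours on opposite strands. Models on the opposite strand overlap many members, and 10 members have named pseudogenes in GENCODE, of which 0 are listed. Reads shared with such copies cannot be separated here.

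Promoter letters were compared because PSMB10, PSME1 and PSME2 are known interferon targets and the subunit genes as a class are known NFE2L1 targets. RefSeq windows of 250 bases before and 50 bases from the start on (GRCh38.p14) matched 38 of 44 genes, in 46 windows, since some genes have several starts. The interferon-stimulated response element core, GAAA, any 2 bases and GAAA again, was searched on either strand and was in 6 of 46 windows (13.04%) and in 3.57% of all 35116 promoter windows. The 6 stretches follow 5′ to 3′ on the gene's strand, with the match in capitals.
PSMB10 (chr16:67936852-67936881, minus strand): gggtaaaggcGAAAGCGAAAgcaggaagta
PSME2 (chr14:24146619-24146648, minus strand): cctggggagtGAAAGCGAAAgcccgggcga
PSME1 (chr14:24136189-24136218, plus strand): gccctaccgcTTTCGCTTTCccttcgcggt
PSMG4 (chr6:3258904-3258933, plus strand): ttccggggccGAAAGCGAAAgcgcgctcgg
PSMB4 (chr1:151399495-151399524, plus strand): tcgtctacagGAAAAAGAAAgaaatgacac
PSMA4 (chr15:78540155-78540199, plus strand): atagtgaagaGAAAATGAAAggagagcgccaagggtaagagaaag
Read on the matching strand, PSMB10, PSME2, PSME1 and PSMG4 held the same 10 letters. With the start base counted as 0, the match began at -21 in PSMB10, -28 in PSME2, -33 in PSMG4 and 5 in PSME1, and farther off in PSMB4 (-68) and PSMA4 (-240). Of the 6 genes, 5 were called higher with doxorubicin and PSMG4 was not, where 32.2% of all genes tested were called higher. The differences of the 6 genes ran from 0.27 (PSMG4) to 2.20 (PSMB10) with a median of 0.62. The 32 other genes with a window had a median of 0.49 with 21 called. The gamma-activated site TTCNNNGAA, another interferon element, was in 6 windows (13.04%, against 7.66% of all), those of PSMA2, PSMB5, PSMC4, PSMD2, PSMD3 and PSME3. These 6 genes had a median of 0.24 with 3 called higher, and the 32 others with a window had 0.54 with 23 called. All these counts are read against that 32.2% and the 30 of 44 members called.

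The antioxidant response element core TGACNNNGC, which NFE2L1 and NFE2L2 read with small MAF proteins, was in 14 of 46 windows (30.43%) and in 13.35% of all windows. Stretches of 3 genes with different outcomes follow, with the match in capitals.
PSMG1 (chr21:39183615-39183644, minus strand): gcccagggcaTGACAGCGCgggcgggcggt
PSMD12 (chr17:67366709-67366767, minus strand): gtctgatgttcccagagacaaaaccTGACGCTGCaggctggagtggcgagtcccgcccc
PSMB3 (chr17:38752612-38752670, plus strand): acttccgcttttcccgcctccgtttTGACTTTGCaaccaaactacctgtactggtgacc
The 14 genes with the letters had a median difference of 0.46 with 8 called higher, and the 24 without had 0.52 with 18 called. Of all genes tested, 32.2% were called higher. PSMG1 and PSMD12 rose and PSMB3 did not pass, while each window holds a match to the pattern with other letters at its open positions. The ETS core CCGGAA was in 21 windows (45.65%, against 17.25% of all) and CCAAT in 18 (39.13%, against 34.61%). Genes with CCGGAA had a median of 0.42 and those without 0.55, and genes with CCAAT 0.52 against 0.48 for those without. These matches describe letters in the windows and show no binding.

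Within each kind of cell all calls were on the higher side, and their number differed. In KO cells 12 of 44 were called higher in limma, where 9.9% of all genes were called higher, in OE cells 14 (12.4% of all genes), and in WT cells 23 (19.6% of all genes), with 0 lower in each, where 14.3%, 10.6% and 12.6% of all genes were called lower. The number lower stayed 0 in each at p under 0.05 before adjustment. The median log2 difference of the 44 was 0.40 in KO cells, 0.50 in OE cells and 0.61 in WT cells, and that of all genes tested was -0.01, 0.11 and 0.17, so the members' medians stood 0.41, 0.39 and 0.44 above those of all genes. In 35 of 44 the difference was above 0 in all 3 kinds of cells, and PSMC6 and PSMD9 were below 0 in all 3. The 12 genes called in KO cells were called in all 3 kinds, as were 8.3% of all genes tested. They were PSMA3, PSMA6, PSMB5, PSMB6, PSMB7, PSMB10, PSMC2, PSMD1, PSME1, PSME2, PSME3 and PSMG1, which include every constitutive proteolytic subunit. PSMA1, PSMB2, PSMB4, PSMC3, PSMD4, PSMD7, PSMD12, PSMD13 and PSMF1 were called in WT cells and in neither other kind, but no member passed the test of that difference, given below. These counts rest on single libraries. Not listed below are the fits without treated KO b and without treated OE b, which kept most of the calls of their kind of cell. There the members' median was 0.48 and 0.61, and that of all genes 0.13 and 0.32. In KO cells 1 gene was called without treated KO a (2.62% of all genes then called higher), 1 without control KO b (1.96%) and 7 without control KO a (10.4%). In OE cells 2 were called without control OE b (2.27%), 4 without treated OE a (2.8%) and 6 without control OE a (5.62%). In WT cells 8 were called without treated WT a (6.98%), 14 without treated WT b (10.5%), 10 without control WT a (5.91%) and 13 without control WT b (16.1%). The single KO genes left were thus at the share of all genes.

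The core and the regulatory particle were set side by side in each kind of cell. The 20 regulatory genes include the chaperones PSMD5, PSMD9 and PSMD10. They leave out the subunits SEM1 and ADRM1, which are described below. In KO cells 6 of 15 core genes and 2 of 20 regulatory genes were called higher, in OE cells 7 and 3, and in WT cells 10 and 8. The regulatory counts in KO and OE cells are near the 9.9% and 12.4% of all genes called higher there. The median difference of the core exceeded that of the regulatory particle by 0.13 in KO cells, 0.20 in OE cells and 0.24 in WT cells, and with 1 library at a time standing for its group this gap had an SD of 0.15 between replicates. In KO cells the gap was -0.05 without treated KO b and -0.0054 without control KO b, and 0.26 without treated KO a and 0.24 without control KO a. In OE cells it was 0.10 without treated OE b and 0.41 without treated OE a, and in WT cells 0.14 without treated WT b. Averaged over the cells it was 0.18, with 12 of 15 core and 11 of 20 regulatory genes called higher. The 9 activators, inhibitor and chaperones had a median of 0.69 and 7 called. The summed TPM of the core over that of the regulatory particle was 1.37 to 1.71 with doxorubicin and 1.38 to 1.58 in control medium, so the ratio of the sums overlapped between media. The gap between the median levels of the 2 particles within a library, on the log2(TPM + 1) scale, was lower with doxorubicin by its median, at 0.68 (0.58 to 0.96) with doxorubicin and 0.78 (0.69 to 0.95) in control medium, and these ranges overlapped too. No test was made of the gap, which is a description of 2 medians.

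**Figure D4:**
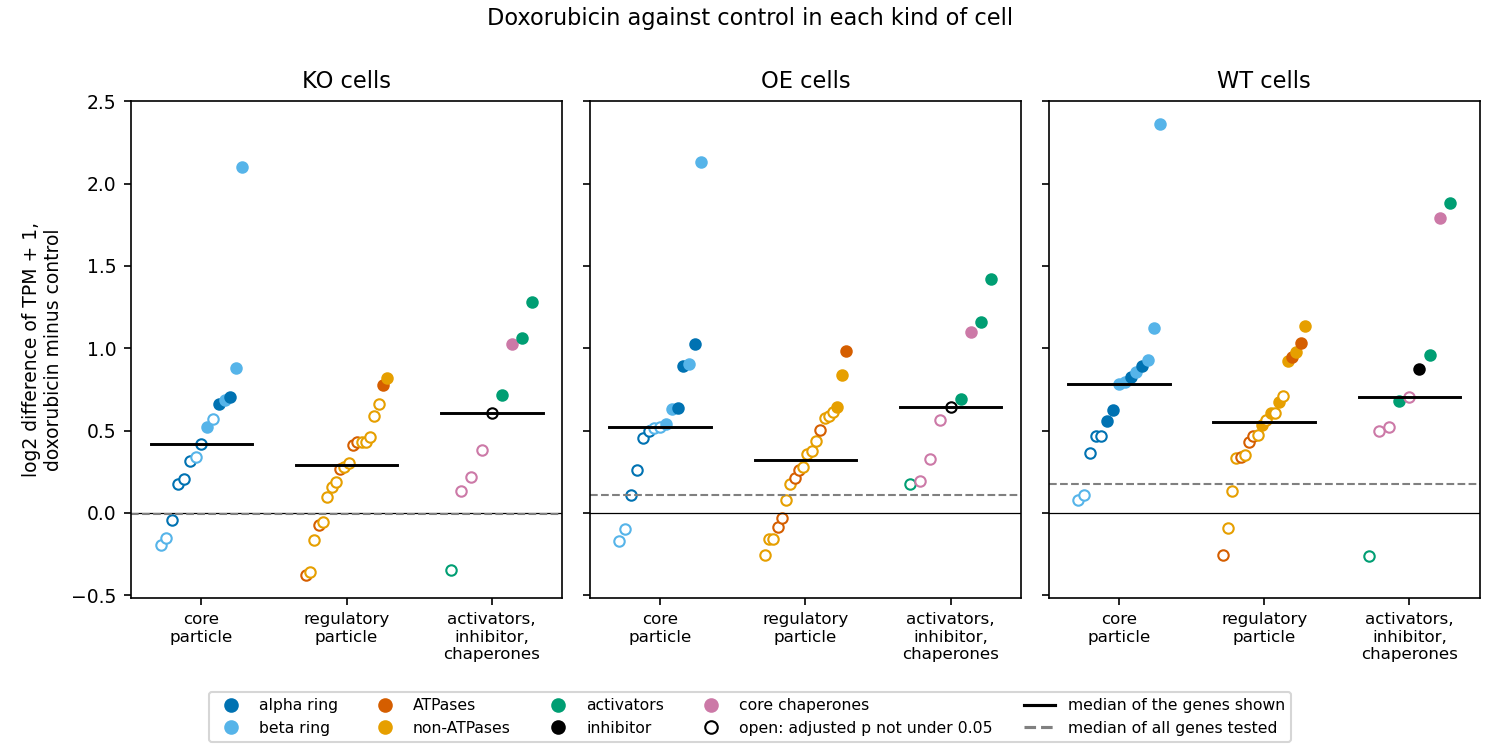
Log2 difference of TPM + 1 between doxorubicin and control (y axis) for core genes, regulatory particle genes and the other 9 genes (x axis) in KO, OE and WT cells, with filled points for limma adjusted p under 0.05, a black line at each median and a dashed line at the median of all genes tested. Every filled point is above 0, and the core median is above that of the regulatory particle in each panel.

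**Figure D5:**
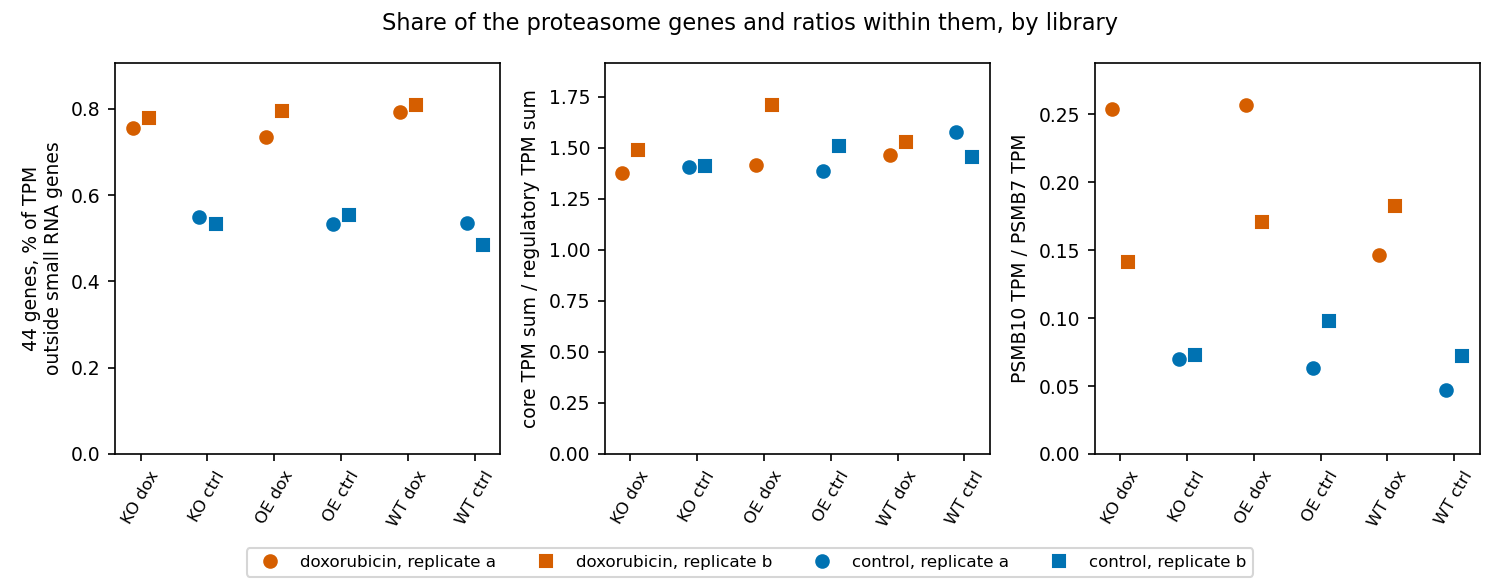
Percent of TPM outside small RNA genes taken by the 44 genes, the ratio of summed core to summed regulatory particle TPM, and the ratio of PSMB10 to PSMB7 TPM (y axes, from 0) in each library by cells and medium (x axis). The share and the PSMB10 ratio separate doxorubicin from control libraries (0.735% or more against 0.554% or less, and 0.142 or more against 0.0982 or less), and the particle ratio does not.

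SPARCLE status moved no member past the test. KO against WT cells gave 0 of 44 in limma with doxorubicin and 0 in control medium, where 0.295% and 0.0918% of all genes were called. OE against WT cells gave 0 with doxorubicin and 0 in control medium, where 0.315% and 0.118% were called. At an unadjusted p under 0.05 the counts were 0 for KO with doxorubicin, 1 for KO in control medium (PSMG1), 3 for OE with doxorubicin (PSMA1, PSMB5 and PSMC3) and 0 for OE in control medium, and voom on recovered reads called 0 in each. PSMG1 averaged 8.27 TPM in control KO libraries and 4.71 TPM in control WT libraries, a log2 difference of 0.69 ± 0.30 (limma adjusted p = 0.675). PSMA1 averaged 52.6 TPM in treated OE libraries and 76.3 TPM in treated WT libraries (-0.53 ± 0.20, limma adjusted p = 0.787). PSMB5 averaged 125.6 TPM in treated OE libraries and 167.4 TPM in treated WT libraries (-0.41 ± 0.18, limma adjusted p = 0.975). With doxorubicin the treated OE libraries lay below both WT libraries in 16 of 44 genes, 7 of them beta ring genes, against 20.5% of all genes. The members' median for that comparison was -0.26 and that of all genes -0.12. Both medians moved with the library left out and with the scaling. The members' median was -0.05 without treated OE b (all genes 0.099), -0.39 without treated OE a (-0.35) and -0.13 without treated WT a (-0.0088). It was -0.13 with median-ratio scaling (-0.0077), -0.099 with voom on recovered reads (0.02) and -0.09 without small RNA genes (0.03). In each of these settings the members' median was under that of all genes.

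Nor did the response to doxorubicin differ by SPARCLE status beyond the test. The interaction terms called 0 of 44 for KO and 0 of 44 for OE in limma and in voom, where 0.00655% of all genes were called in each, and at an unadjusted p under 0.05 the counts were 0 and 0. The members' median interaction was -0.27 for KO, against -0.18 over all genes, and -0.25 for OE, against -0.07. These medians, and those of all genes, move with single libraries and with the scaling. For KO the members' median was -0.15 without treated KO b (all genes -0.05), -0.17 without treated WT a (-0.07) and -0.14 without small RNA genes (-0.08). It was -0.05 with median-ratio scaling (0.0086) and -0.04 with voom on recovered reads (0.0072). For OE the members' median was -0.0164 without treated OE b (all genes 0.14), -0.39 without treated OE a (-0.30) and -0.14 without treated WT a (0.04). It was -0.15 with median-ratio scaling (0.0008) and -0.13 with voom (0.01). The members' median was under that of all genes in each of these settings. For KO without control WT b it was above, at -0.22 against -0.25. The estimates farthest from 0 were PSMG1 for KO at -0.76 ± 0.43 (95% interval -1.68 to 0.16) and PSMG1 for OE at -0.69 ± 0.43 (95% interval -1.61 to 0.23). PSMC3 for OE had -0.69 ± 0.33 (95% interval -1.40 to 0.03). For PSMB10 the intervals were -1.31 to 0.78 for KO and -1.28 to 0.81 for OE, so with 2 libraries a group a response weaker by 1 on the log2 scale than in WT cells was inside both intervals, and one stronger by 1 was outside both.

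Replicate a was above replicate b in 40 of 44 genes in treated KO cells, 40 in treated OE cells and 39 in treated WT cells. The members' median gap was 0.26, 0.31 and 0.22, close to or under the 0.26, 0.45 and 0.23 of all genes tested. In control cells a was above b in 23, 29 and 30 genes of KO, OE and WT cells, with a members' median gap of 0.0046, 0.09 and 0.11, against 0.20, 0.15 and -0.15 over all genes.

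Partners of the proteasome under other names did not rise as a block. SEM1, a small lid subunit, had 6.58 TPM with doxorubicin and 10.8 TPM in control medium and fell by 0.64 on the log2 scale (limma adjusted p = 0.00172), without overlap between media. ADRM1, a ubiquitin receptor of the base, had a difference of 0.38 (limma adjusted p = 0.122), so the ubiquitin receptor PSMD4 rose and ADRM1 did not pass. The chaperone POMP, which matures the core, had 0.28 (limma adjusted p = 0.0663), and PAAF1, which binds the ATPases, rose by 0.41 at a level of 1.54 TPM with doxorubicin and 0.859 TPM in control medium. Of 9 proteasome-associated factors 3 rose and 2 fell, with a median of -0.17. These shares, like those of all lists below, are read against the 32.2% of all genes called higher and 25.9% called lower. The 3 and 2 of 9 are near them. ECPAS, a scaffold that links proteasomes to other compartments, rose by 0.65 and the ubiquitin ligase UBE3C by 0.57. The zinc finger factors ZFAND2B and ZFAND5 fell by 0.69 and 0.62 (limma adjusted p = 0.00359 and 0.00416).

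Of 8 regulators of proteasome gene transcription, 1 rose and 2 fell. MAFF, a small MAF partner, had 3.96 TPM with doxorubicin and 19.6 TPM in control medium. Its difference of -2.001 (limma adjusted p = 5.46e-06) was the largest in these lists on the falling side, and MAFG fell by 0.50. DDI2, the protease that activates NFE2L1, rose by 0.55 (limma adjusted p = 0.00816), and NFE2L1 itself, singled out after its values were seen, had 0.14 (limma adjusted p = 0.413). Ubiquitin itself was split. UBB had 680.04 TPM with doxorubicin and 397 TPM in control medium (0.78, limma adjusted p = 0.000215), while RPS27A, which carries ubiquitin fused to a ribosomal protein, had 175 TPM with doxorubicin and 289.9 TPM in control medium (-0.71, limma adjusted p = 0.000233), and the activating enzymes UBA1 and UBA6 fell by 0.40 and 0.49. Of 5 listed shuttle factors 1 rose (UBQLN4, 0.68), and of 7 genes for VCP and its cofactors 0 were called in limma, although FAF2 was lower at p under 0.05 before adjustment.

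Antigen-presentation partners were higher too. Of 4 listed genes 3 rose, with a median of 0.88, where 32.2% of all genes were called higher. TAP1, which carries proteasome peptides into the endoplasmic reticulum, had 55.9 and 26.2 TPM in treated against 9.04 and 7.37 in control KO libraries, 51.998 and 25.2 in treated against 8.54 and 7.53 in control OE libraries, and 33.04 and 43.3 in treated against 6.29 and 9.68 in control WT libraries. All treated libraries were above all controls (2.10, limma adjusted p = 8.22e-06). TAP2, its partner, rose by 1.28 and PSMB9 by 0.49 (limma adjusted p = 2.22e-05 and 0.0142), and TAPBP had 0.12 (limma adjusted p = 0.632). In WT cells alone PSMB9 had 0.18 and did not pass (limma adjusted p = 0.625), with overlap between media. The complexes built like the lid gave mixed results. Of 9 COP9 signalosome genes 3 rose, near the share of all genes called higher, and 1 fell (median -0.08). COPS6 was at 1.01 and COPS3 at -0.45. Of 13 eIF3 genes 4 rose and 4 fell (median 0.05), near the shares of all genes, with EIF3B at 0.93 and EIF3L at -0.95 (limma adjusted p = 4.1e-05 and 2.64e-05).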

How the data were processed

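Members and gene lists were chosen with earlier results of these data known. The authors deposited log2 TPM per gene and library. Per the submitters' processing notes, the tools named were HISAT2 2.0.4, SAMtools 1.7, featureCounts, R 3.3.3 and edgeR 3.12.1 with build hg38; their settings, the strand setting included, are not given in the sources used here. The values were turned back into TPM, which summed to 1000000 per library. Symbols and lengths came from GENCODE v29. Whole reads were recovered from TPM and gene length for 15182 genes (91.7%, within 0.05 reads), 43 members among them.

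limma 3.58.1 (R 4.3.3, empirical Bayes with trend) was fitted to log2(TPM + 1) of genes with at least 1 TPM in at least 2 libraries, as 1 model of 6 group means, and was tested on simulated data. Fold changes on this scale understate the change of low genes. Calls needed a Benjamini-Hochberg adjusted p under 0.05 over 15256 genes. Values by library were given for up to 3 members per role with the largest t in the averaged comparison, the proteolytic subunits, and the highest and lowest members, and up to 4 genes per list were named by smallest adjusted p. Alternatives covered the pseudocount, filter, scaling, recovered reads with voom, samples fitted, replicate block and each library left out.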

Additional observations from a re-analysis of the deposited data

How the results depend on the processing

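With the letters a and b as a replicate block, 14 of 44 genes were called in KO cells, 20 in OE cells, 26 in WT cells and 32 in the average. Of all genes, 13.9%, 17.4%, 24.8% and 35.2% were then called higher, against 9.9%, 12.4%, 19.6% and 32.2% without the block. The labels do not say that a letter marks a shared day or culture, and the pairwise correlations of same-letter deviations ran from -0.39 to 0.81 over 15 pairs of groups, so the pairing is not established. In KO cells 12 genes were called as reported, 26 after removing small RNA genes from the TPM total, 19 with voom on recovered reads and 6 when only those 4 libraries were fitted, where 9.9%, 20.3%, 19.4% and 7.68% of all genes were called higher. In OE cells 14 were called as reported (12.4% of all genes called higher) and 14 with voom (20.2%). There 28 were called without small RNA genes (23.4%) and 9 when only those 4 libraries were fitted (13.5%). In WT cells 20 were called with voom (22.7%), 32 without small RNA genes (27.7%) and 26 when only those 4 libraries were fitted (28.3%). With median-ratio scaling 18 were called in KO cells (18.8% of all genes), 13 in OE cells (19.6%) and 19 in WT cells (22.6%). Leaving out 1 library at a time gave 1 to 10 in KO cells, 2 to 16 in OE cells, 8 to 14 in WT cells and 26 to 35 in the average, always with 0 lower. The members' median then stood above that of all genes by 0.26 to 0.47 in KO cells and 0.28 to 0.45 in OE cells. It stood above by 0.38 to 0.55 in WT cells and by 0.375 to 0.446 in the average. The share of all genes called higher also changed between these fits, so the counts are not read alone but beside these medians. The gap between core and regulatory medians then ran from -0.0499 to 0.258 in KO cells, 0.0965 to 0.407 in OE cells, 0.138 to 0.302 in WT cells and 0.13 to 0.229 in the average. Over all 44 genes and 55 alternative fits of the doxorubicin comparisons, 169 calls were lost, 98 were gained and 0 reversed. Comparisons of KO or OE with WT, like the interactions, gave 0 calls throughout. The causes were not tested. With 2 libraries a group, and control libraries of lower depth, a call in 1 kind of cell rests on few values.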
